A study of Mus musculus with 4 samples.

Results

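The genes described here are 10 members of the NF-kB and TNF receptor signalling pathway in mouse kidney: the cytokine Tnf, the receptors Tnfrsf1a, Tnfrsf1b and Tnfrsf12a, the NF-kB subunits Nfkb1, Nfkb2 and Relb, and the regulators Bcl3, Nfkbia and Tnfaip3. They were matched by gene name and are 10 of 21216 genes with a name on the array. They are read by 14 of 41142 probes. All 10 names were found.

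Total RNA from whole kidney was hybridised to 4 one-colour Agilent arrays, 1 array for each of 4 groups. The groups were C57BL/6 wild type mice after a sham operation, NLRC5-/- mice after a sham operation, wild type mice after ischemia reperfusion injury, and NLRC5-/- mice after the same injury. All mice were 8 weeks old. In the injury, per the series' design text, the blood supply of both kidneys was stopped for 30 min and then restored. The design text and the sample titles put collection at 48 h, whereas the sample descriptions give 24 h. Nlrc5 encodes a member of the NOD-like receptor family of cytoplasmic proteins. The labels do not say which part of the gene was deleted in the knockout, whether the deletion was confined to a cell type, or how many animals gave the RNA of an array.

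TNF family ligands bind trimeric receptors at the cell surface, and the receptors recruit adaptors and ubiquitin ligases that activate the IkB kinases. In the canonical branch these kinases mark IkB-alpha, the product of Nfkbia, for destruction, which lets NF-kB dimers enter the nucleus; in the non-canonical branch the precursor made by Nfkb2 is processed and pairs with the product of Relb. Several genes of the pathway are themselves NF-kB targets, among them Nfkbia, Tnfaip3, Nfkb2, Relb and Bcl3. In the kidney, ischemia reperfusion damages mainly the proximal tubule and is followed by cytokine production and leukocyte entry.

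Start-site sequences are shown for 4 members to set those with and without letters of the NF-kB consensus motif side by side. RefSeq (GRCm38.p6) gave 11 windows, each from 250 bases before to 50 bases after a start site, for 8 of the 10 members, and none was used for Nfkb1 or Relb. The NF-kB consensus motif, 10 bases long, was searched on both strands. The 250 bases before the start are printed 5′ to 3′ on the gene's strand, with each match in capitals. The windows are Nfkb2 window 1 (chr19:46304487-46304736, plus strand), Nfkbia (chr12:55492648-55492897, minus strand), Tnfaip3 window 2 (chr10:19015411-19015660, minus strand) and Tnfrsf12a (chr17:23677450-23677699, minus strand).
Nfkb2: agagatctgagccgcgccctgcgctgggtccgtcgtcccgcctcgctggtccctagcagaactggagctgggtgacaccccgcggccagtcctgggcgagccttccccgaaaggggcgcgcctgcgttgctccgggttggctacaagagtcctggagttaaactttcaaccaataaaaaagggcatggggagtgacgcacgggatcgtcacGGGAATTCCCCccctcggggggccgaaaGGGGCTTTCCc
Nfkbia: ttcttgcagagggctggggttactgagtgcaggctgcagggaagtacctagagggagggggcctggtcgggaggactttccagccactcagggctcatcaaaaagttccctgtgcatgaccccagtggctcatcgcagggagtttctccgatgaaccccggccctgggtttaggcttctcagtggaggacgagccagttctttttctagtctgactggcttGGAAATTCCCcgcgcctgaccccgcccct
Tnfaip3: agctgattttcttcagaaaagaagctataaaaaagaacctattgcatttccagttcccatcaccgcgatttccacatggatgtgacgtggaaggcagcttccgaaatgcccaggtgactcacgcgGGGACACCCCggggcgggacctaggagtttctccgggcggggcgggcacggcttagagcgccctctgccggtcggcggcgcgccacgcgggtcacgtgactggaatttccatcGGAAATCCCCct
Tnfrsf12a: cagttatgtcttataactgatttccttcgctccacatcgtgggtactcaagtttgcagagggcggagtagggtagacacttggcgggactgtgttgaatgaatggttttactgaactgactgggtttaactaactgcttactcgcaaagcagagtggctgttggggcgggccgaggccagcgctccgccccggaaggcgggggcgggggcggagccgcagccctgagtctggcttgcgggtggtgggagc

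In the Nfkb2 sequence, 2 overlapping matches started 39 and 38 bases before the start site and another started 11 bases before it. The single match in the Nfkbia sequence started 29 bases before the start. In the Tnfaip3 sequence the matches started 125 and 12 bases before it. Bcl3 held 1 match, GGGAAGTCCC, whose first base was base 3 after the start. Nfkb2 windows 2 and 3 overlap and shared 1 further match, GGGACTTTCC, whose first base was base 11 after one start and 225 bases before the other, and window 2 also held GGAATGTCCC. In all, 4 of 8 members and 6 of 11 windows held a match, against 2581 of 27025 genes (9.55%) and 2779 of 32851 windows (8.46%) in the whole table. At least 3 matches, as in Nfkb2 window 1, were found in 61 windows (0.186%). No match was found in the windows of Tnf, Tnfrsf1a, Tnfrsf1b and Tnfrsf12a, which says only that these letters are not in them. A match describes letters and is not a measured binding site.

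Levels are given as log2 of the processed signal minus the 75th percentile of the same array, so that 0 is that percentile and a step of 1 is a 2-fold step. Every set of 4 values gives the sham arrays first, wild type before knockout, and then the injured arrays in the same order. A probe was called well above background where a share of its usable spots above 0.5 carried that flag of the scanner software. With 1 array per group there is no replicate error, so single-array differences carry no p-value. Spots of one probe repeated on an array gave the only measure of technical error: the SD of a log2 difference had a median of 0.14 and a 95th percentile of 0.32 for injured against sham in wild type, and medians of 0.08 to 0.12 in the other comparisons. That error holds nothing of the spread between mice.

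The 75th percentile of the signal was 457 and 466 on the sham arrays, 182 on the wild type injured array and 362 on the knockout injured array, and 67.2% to 74.6% of probes were well above background. Both wild type arrays shared 1 scan and both knockout arrays another, so genotype and scan cannot be told apart, while injured and sham were compared within a scan. The knockout sham array carried a female pattern (Xist at 5.20, Ddx3y, Eif2s3y, Kdm5d and Uty not well above background) and the other arrays a male one, so genotype and sex cannot be told apart on the sham arrays, nor injury and sex within the knockout. As a check of the labelled tissue, all 12 proximal tubule and all 9 distal nephron markers were well above background on each array. Nlrc5, the deleted gene, was read by 1 probe at -4.08, -3.77, -3.35 and -3.62, well above background on all 4 arrays. Knockout minus wild type was 0.31 on the sham and -0.27 on the injured arrays. Since the deleted part is not given, it is unknown whether this probe lies in it, and the genotype labels were not checked by it.

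Tnf, the founding cytokine of the family, was read by a probe at chr17:35336795-35336854 (mm9, minus strand) that is spotted 10 times. Its level was -5.84, -5.66, -6.11 and -4.68. Only the knockout injured array had it well above background, in 10 of 10 spots, against 1 of 10, 4 of 10 and 0 of 8 usable spots on the other arrays. On the knockout arrays injured minus sham was 0.98, a value that depended on the processing. It was 0.65 in the authors' value table, 0.38 with normexp fitted without flagged spots and 1.92 with normexp. In the main processing, the knockout sham array's lowest detectable signal in place of its dim value gave a bound of 1.90-fold. Against the wild type injured array, whose lowest detectable signal lay higher, the bound was only 1.04-fold, below the measured difference of 1.43 on the log2 scale. The SD over the spots was 0.23 on the knockout injured array and 0.38 to 0.77 on the others.

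Tnfrsf1a, the widely expressed receptor of soluble TNF, was read by a probe at chr6:125312376-125312435 (mm9, plus strand) with 10 spots. It lay at 2.70, 2.86, 3.47 and 3.02. The wild type injured array was the highest, 0.77 above wild type sham (1.70-fold), whereas the knockout arrays differed by 0.16, or by -0.38 with normexp background correction. Spot SDs were at most 0.05, smaller than each of these differences.

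Tnfrsf1b, the second TNF receptor, had 2 probes that disagreed. The brighter one, a single spot at chr4:144812866-144813439 (mm9, minus strand; the span exceeds the probe's length), gave -0.45, -0.23, -0.45 and -0.25, so that injured and sham differed by 0.00 in wild type and -0.02 in the knockout. The other, with 10 spots at chr4:144804304-144804363, gave -4.78, -4.51, -2.94 and -3.52, so that injured minus sham was 1.84 for wild type and 0.99 for the knockout. Its spot SDs were 0.04 to 0.26, so its differences exceeded the spot error. No direction is given for Tnfrsf1b as a gene.

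Tnfrsf12a, the receptor of the cytokine TWEAK (Tnfsf12), had the widest range of all members. Its probe at chr17:23812746-23812805 (mm9, minus strand) lay at 1.17, 1.10, 4.94 and 2.68. This probe, like those of Nfkb2, Relb, Bcl3, Nfkbia and Tnfaip3, had 1 spot and so no spot error of its own. Both sham arrays were alike within the spot error of repeated probes. The wild type injured array stood 13.6-fold above its sham array, and the knockout injured array 2.99-fold above its own. Knockout minus wild type on the injured arrays was -2.26, a 4.79-fold lower level. With normexp background correction the injury difference in the knockout was 1.02, just past 2-fold, against 1.58 in the main processing. Of 16719 genes compared in wild type, 1.11% had a larger increase with injury. Of 16789 genes compared between the injured arrays, 1.78% were lower in the knockout by more. Its ligand Tnfsf12 lay at -0.35, -0.19, 0.17 and -0.01, and differed by 0.52 or less in every comparison.

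**Figure D1:**
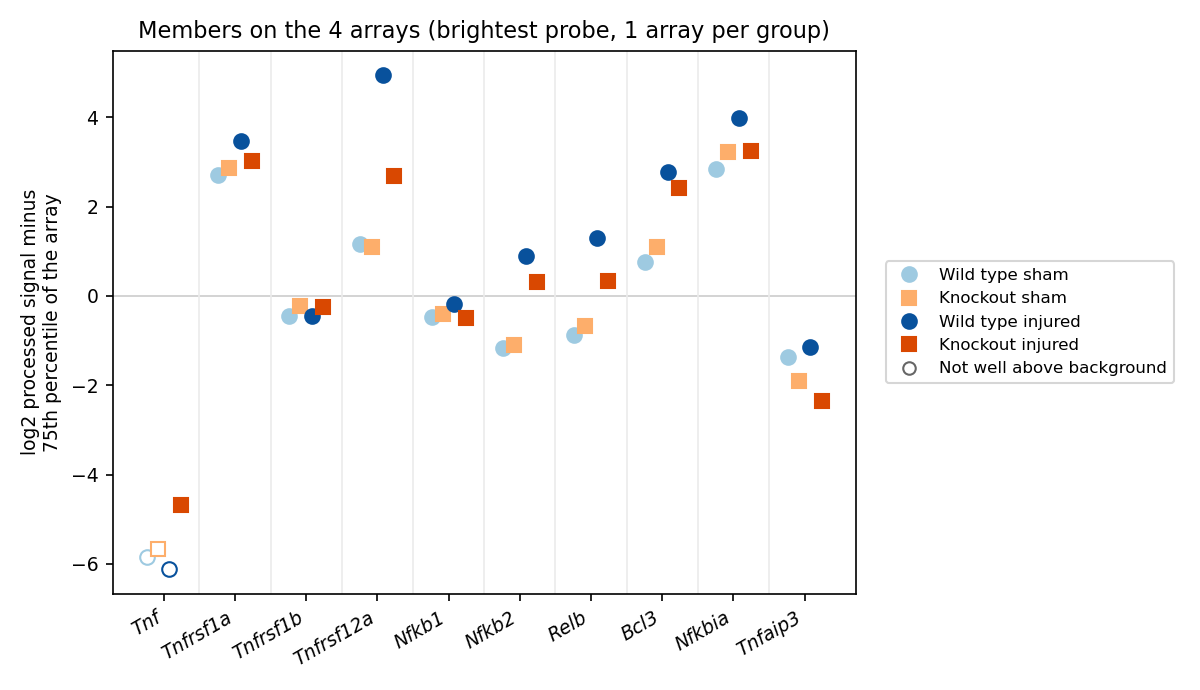
Levels of the 10 members (x axis) on the 4 arrays, as log2 processed signal minus the 75th percentile of the array (y axis), for the brightest probe of each gene, with 1 point per array and open symbols where the probe was not well above background. The wild type injured array was the highest for 8 of the 10 members, with Tnfrsf12a at 4.94, and Tnf was well above background on the knockout injured array only.

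Nfkb1, which encodes a subunit of the canonical NF-kB dimer, had 4 probes, all well above background on all 4 arrays. The brightest, with 10 spots at chr3:135247710-135247771 (mm9, minus strand), lay at -0.46, -0.40, -0.17 and -0.50, a range no wider than 0.33. The other probes, of 1 spot each, started at 135275144, 135274175 and 135281195 on the same chromosome and were higher after injury in wild type by 0.99, 0.83 and 0.85. In the knockout the 4 probes ran from -0.14 to 0.80 for injured minus sham. All 4 probes had the smaller injury difference in the knockout, with a knockout minus wild type gap of -0.98 to -0.04. No probe reached 2-fold in any comparison.

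**Figure D2:**
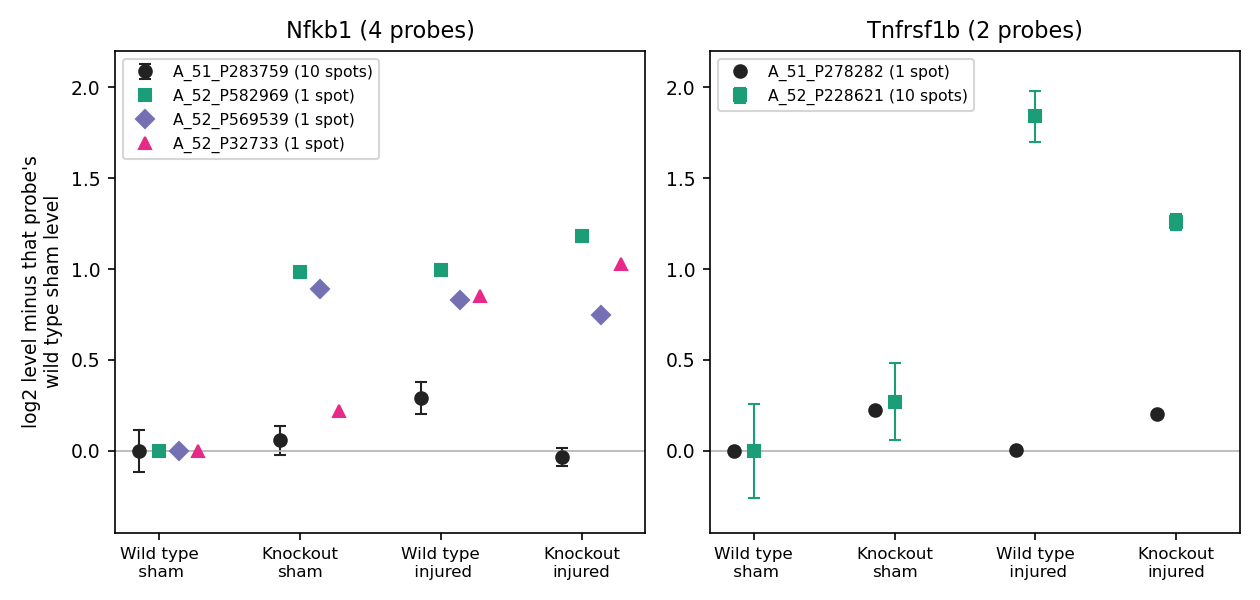
Level of each Nfkb1 and Tnfrsf1b probe on the 4 arrays (x axis) as the log2 difference from the same probe on the wild type sham array (y axis); bars are the SD over spots for probes with 10 spots. The brightest Nfkb1 probe stayed within 0.29 of wild type sham, and the Tnfrsf1b probes stood at 0.00 and 1.84 on the wild type injured array.

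Nfkb2, the precursor subunit of the non-canonical branch, was read at chr19:46386146-46386285 (mm9, plus strand) and lay at -1.17, -1.09, 0.90 and 0.30. Both injured arrays were above both sham arrays, by 4.22-fold in wild type and 2.64-fold in the knockout. Relb, its dimer partner, was read at chr7:20191722-20191781 (mm9, minus strand) and lay at -0.88, -0.67, 1.30 and 0.35. Its injured arrays were also the higher ones, by 4.55-fold in wild type and 2.02-fold in the knockout, and the knockout injured array was 1.94-fold below the wild type one. Of the genes compared, 4.65% in wild type and 2.99% in the knockout had a larger increase than Nfkb2, and 4.21% and 4.83% had a larger one than Relb.

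Bcl3, an atypical IkB protein that acts in the nucleus with NF-kB dimers, was read at chr7:20393862-20393921 (mm9, minus strand) and lay at 0.75, 1.09, 2.77 and 2.42. It was 4.05-fold higher after injury in wild type and 2.51-fold higher in the knockout. The injured arrays differed by 0.35, the smallest such gap among the 4 members that were past 2-fold in both genotypes. With normexp, knockout minus wild type on the injured arrays was -0.75 for Bcl3 and -0.39 for Nfkb2. In that setting Bcl3 was 0.82 higher after injury in the knockout, under 2-fold.

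Nfkbia, the canonical inhibitor, was read at chr12:56590945-56591440 (mm9, minus strand; the span exceeds the probe's length) and lay at 2.85, 3.22, 4.0 and 3.26. The wild type injured array was 2.22-fold above its sham array. The knockout arrays differed by 0.04, within the spot error of repeated probes, or by -0.39 with normexp. Tnfaip3, which encodes the ubiquitin-editing inhibitor A20, was read at chr10:18720994-18721053 (mm9, minus strand) and lay at -1.36, -1.90, -1.15 and -2.34. It was the one member lower on both knockout arrays by more than 0.5, with -0.55 on the sham and -1.19 on the injured arrays, the latter a 2.29-fold lower level. Its injured minus sham difference was 0.21 in wild type and -0.44 in the knockout, and with normexp background correction the knockout value turned to 0.76.

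Injury in wild type kidneys was compared first. Of 9 members well above background on at least 1 of those arrays, 5 were higher by 2-fold or more (Tnfrsf12a, Relb, Nfkb2, Bcl3 and Nfkbia) and 0 lower. The background was 14.6% of 16719 genes higher and 15.1% lower by 2-fold or more. The members' median was 1.15, against -0.01 for all genes compared.

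Injury in the knockout gave 4 of 10 members higher by 2-fold or more (Tnfrsf12a, Nfkb2, Bcl3 and Relb) and 0 lower, with 4.96% of 17086 genes higher and 4.2% lower. The median of the members was 0.57, against 0.02 over all genes. Tnf entered that median through the knockout injured array only, and had no place in the wild type one. Over the 9 members well above background on all 4 arrays the knockout median was 0.16. The sham array of this comparison had the female pattern and the injured array the male one, so injury and sex cannot be told apart here. Tnf, at 0.98, lay just under 2-fold. Relb, at 2.02-fold, lay just over it. When background was corrected with the normexp model, Relb and Bcl3 were both under it, at 0.82 on the log2 scale, and Tnf was over it, at 1.92. With normexp fitted without flagged spots Relb was at 0.82, Bcl3 at 1.25 and Tnf at 0.38.

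Between the genotypes on the sham arrays, 0 of 9 members differed by 2-fold, where 5.55% of genes were higher and 3.69% lower in the knockout. The members ran from -0.55 (Tnfaip3) to 0.37 (Nfkbia), with a median of 0.16.

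On the injured arrays, 2 of 10 members were lower in the knockout by 2-fold or more (Tnfrsf12a and Tnfaip3), where 8.09% of 16789 genes were. Tnfaip3 was at -0.09 in that comparison with normexp, and at -1.01 with normexp fitted without flagged spots. Tnf alone was higher, where 11.3% of genes were, and its 2-fold step is lost at the bound given above. Tnf was at 0.95 with normexp and turned to -0.57 with normexp fitted without flagged spots. The median of the members was -0.53, against 0.05 over all genes, and 8 of 10 were lower by any amount. Over the 9 members well above background on all 4 arrays, without Tnf, it was -0.60. Relb, at -0.95, and Nfkbia, at -0.74, were the next lowest.

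The injury difference in the knockout minus that in wild type was below 0 for each of the 9 members well above background on all 4 arrays, though Tnfaip3 was at 0.42 with normexp and Tnfrsf1b at 0.06 with median scaling. It was past 2-fold for Tnfrsf12a (-2.19), Relb (-1.17) and Nfkbia (-1.11), 3 of 9, where 9.32% of 14993 genes were past it in that direction and 9.8% in the other. Nfkbia was at -0.78, and the count 2, with normexp fitted without flagged spots. The median of the members was -0.68 against -0.02. The brightest Tnfrsf1b probe gave -0.02, within the spot error of repeated probes. This quantity rests on 4 single arrays, takes in the knockout sham array with its female pattern, and was not tested.

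**Figure D3:**
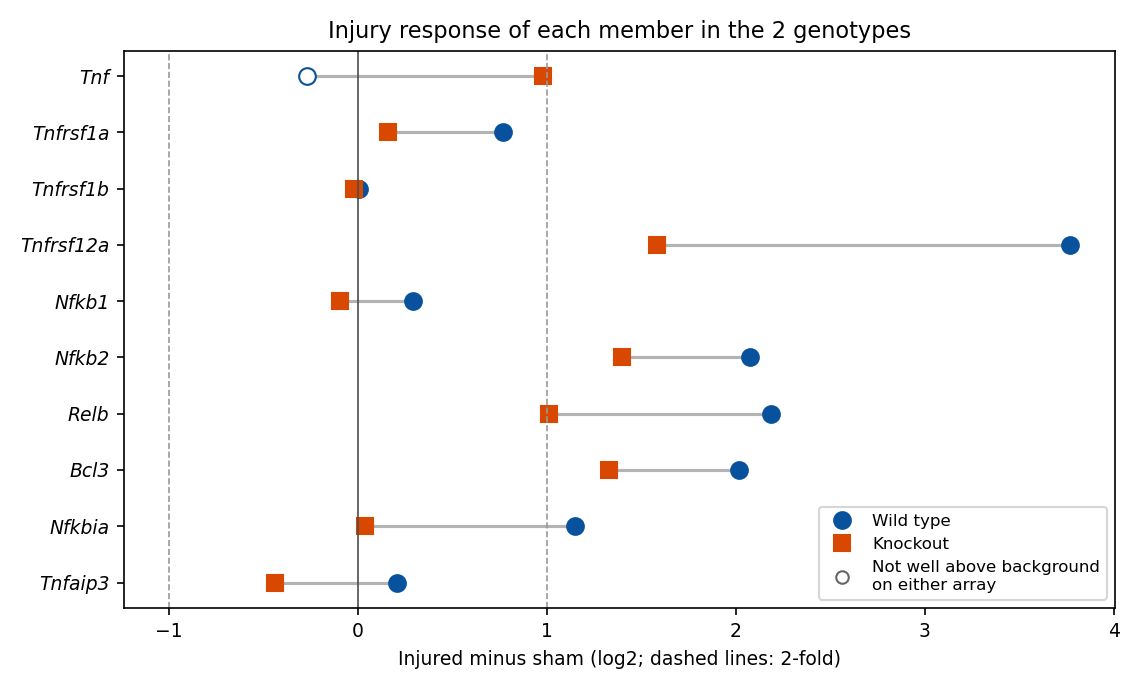
Injured minus sham log2 difference (x axis) of each member (y axis) in wild type (circles) and knockout (squares), with dashed lines at 2-fold and an open symbol where neither array was well above background. Tnfrsf12a had the widest gap between genotypes, at 3.77 and 1.58, and 9 of the 10 members had the smaller value in the knockout.

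An additive limma fit of injury and genotype over the 4 arrays, with 1 residual degree of freedom, was made on 16609 genes. For injury, 0 genes passed an adjusted p of 0.05 in limma (lowest adjusted p 0.419), and 1860 had an unadjusted p below 0.05, of which 5.15% of all tested were higher and 6.04% lower. Nfkb2 was higher by 1.74 ± 0.31 (SE) and Bcl3 by 1.67 ± 0.31, both with an adjusted p of 0.432 in limma. Tnfrsf12a was higher by 2.68 ± 0.64 and Relb by 1.60 ± 0.41, also with an adjusted p of 0.432, and all 4 were higher in 2 of 2 injured-sham pairs. These 4 members passed an adjusted p of 0.05 when background was corrected with normexp, where 4438 genes passed, and with normexp fitted without the flagged spots, where 720 of 15670 did. With the knockout injured array left out, the additive model has no residual degree of freedom, and a model of injury alone was fitted instead. It sets 1 injured array, assumed to vary like the others, against 2 sham arrays that differ in genotype, scan and sex pattern. Its calls do not compare with the 0 above, and none is read here as a result about a member.

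For genotype, 0 genes passed in limma (lowest adjusted p 0.767), and 909 had an unadjusted p below 0.05, of which 3.4% of all tested were higher and 2.08% lower. Tnfaip3 had the lowest p among the members, with -0.87 ± 0.31 (SE, adjusted p = 0.767 in limma), and was lower in 2 of 2 knockout-wild type pairs. With the wild type sham array left out, a model of genotype alone, of 1 wild type array against 2 knockout arrays that differ in injury and sex pattern, called 144 genes, which does not compare with the 0 above. The p-values rest on single arrays and do not measure the spread between mice.

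Other genes of the pathway were read from lists by role, with counts to be set against the shares of all genes past 2-fold: 14.6% higher and 15.1% lower for injury in wild type, 4.96% and 4.2% for injury in the knockout, and 11.3% and 8.09% for knockout against wild type on the injured arrays. Of 16 TNF superfamily ligands on the array, 9 were well above background somewhere. In wild type, 1 of 9 was higher after injury by 2-fold or more (Cd70, a ligand of activated lymphocytes, by 2.33) and 3 were lower (Ltb, Tnfsf10 and Tnfsf13b). In the knockout 0 of 9 passed 2-fold in either direction. Ltb, a ligand of the lymphotoxin beta receptor, lay at -2.16, -2.73, -5.04 and -2.36. Its wild type injured value was not well above background, and the knockout injured array was at least 2.38 higher on the log2 scale. Tnfsf13b, the B cell survival factor BAFF, and Tnfsf10, the death ligand TRAIL, were higher there by 1.48 and 1.31.

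Among the other 23 TNF receptors, 3 of 18 compared were higher and 4 lower by 2-fold or more after injury in wild type, and 1 of 18 higher and 3 lower in the knockout. In wild type, 14.6% of all genes were higher and 15.1% lower, and these counts are near those shares. Eda2r was well above background on the wild type injured array only (-3.52), at least 1.99 above wild type sham on the log2 scale, with knockout minus wild type at -1.79 or below on the injured arrays. Tnfrsf23 lay at -4.87, -3.93, -2.50 and -3.37 and Tnfrsf10b, the mouse TRAIL receptor, at -4.20, -4.20, -2.82 and -3.64. For both, the wild type injured array was the highest and the knockout injured array the next. The 4 lower in wild type were Tnfrsf13c (-3.39), Tnfrsf19 (-2.55), Tnfrsf14 (-1.46) and Fas (-1.09). Of these only Fas was well above background on the wild type injured array, and the step of Tnfrsf14 was lost at its bound. In the knockout Tnfrsf21 (-1.53), Edar (-1.17) and Tnfrsf14 (-1.14, or -0.26 at its bound) were lower and Ngfr (1.33) higher.

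All 21 adaptors and ubiquitin enzymes were well above background on each array. After injury 4 of 21 were higher by 2-fold or more in wild type (Casp8 by 1.71, Birc3 by 1.23, Tnip2 by 1.05 and Cyld by 1.0) and 0 lower, where 14.6% and 15.1% of all genes were, with a median of 0.46. In the knockout 0 of 21 passed in either direction, where 4.96% and 4.2% of all genes did, with a median of 0.13. Casp8, the initiator caspase of death receptors, lay at 0.25, 0.12, 1.95 and 0.72, so that it was the list's only gene past 2-fold between the injured arrays (-1.23). Of 12 IkB kinases and upstream kinases, 2 were higher by 2-fold or more after injury in wild type, Tbk1 by 1.11 and Ikbkb by 1.02, and 0 in the knockout. Map3k14, the NF-kB-inducing kinase of the non-canonical branch, was 0.57 and 0.51 higher in the respective genotypes.

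Of 10 other NF-kB and IkB genes, 9 were compared. Nfkbiz, a nuclear IkB protein, lay at -1.61, -0.91, 0.61 and 0.16 and was 2.22 higher after injury in wild type and 1.07 in the knockout. Nfkbid was 1.39 higher in wild type and 0.69 in the knockout. Rela, the main activating subunit, lay at 1.46, 1.28, 2.04 and 1.16 and did not reach 2-fold in either. Rel was not well above background on any array.

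The NF-kB target list held genes higher in either genotype. After injury 9 of 26 targets compared were higher by 2-fold or more in wild type and 3 lower, where 14.6% and 15.1% of all genes were, with a median of 0.70. In the knockout 11 of 26 were higher and 0 lower, where 4.96% and 4.2% of all genes were, with a median of 0.81. The genes compared were not all the same: Ccl7 was compared in the knockout only and Ptgs2 in wild type only. Cxcl1, a neutrophil chemokine, was 4.45 and 3.92 higher in the respective genotypes, and Icam1, an adhesion molecule, 1.94 and 1.48. Between the injured arrays 4 of 27 were higher in the knockout (Ccl5 by 2.42, Ccl7, Cxcl10 and Ccl2 by 1.73), all of them chemokines, and 6 were lower, among them Ptgs2, Ier3 and Cxcl1, where 11.3% of all genes were higher and 8.09% lower. Ccl5, a T cell and monocyte chemokine, lay at -0.20, -0.67, -1.95 and 0.47, and Cxcl10 at -0.21, 0.05, -0.16 and 1.94. For both, the knockout injured array was the highest. Tnf was also highest there in the main processing, but its bound against the wild type injured array was only 1.04-fold.

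**Figure D4:**
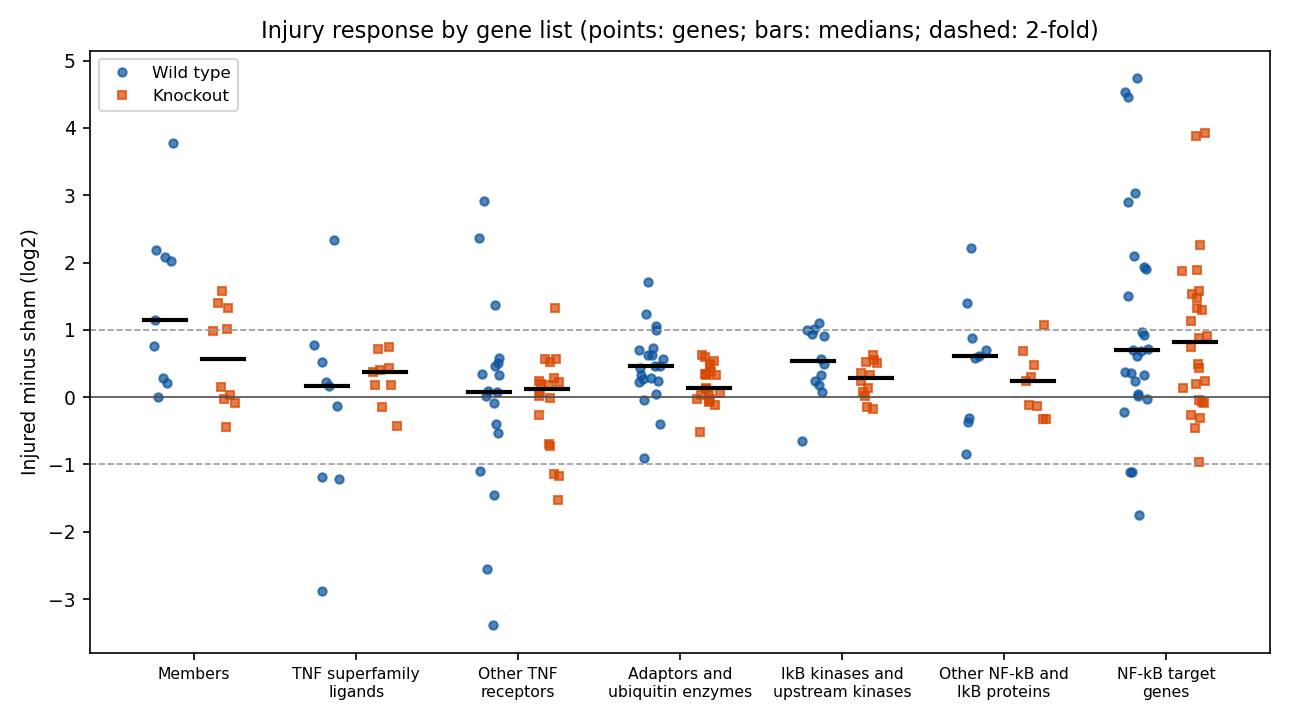
Injured minus sham log2 difference (y axis) of each gene compared, for the members and the 6 other pathway lists (x axis), in wild type (circles) and knockout (squares), with black bars at the medians and dashed lines at 2-fold. The members' medians were 1.15 over 9 genes in wild type and 0.57 over 10 in the knockout, where Tnf was added. Over the 9 members well above background on all 4 arrays the knockout median was 0.16. The target genes' medians were 0.70 and 0.81, each over 26 genes that were not all the same.

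Cell type markers moved with these differences, and in whole kidney a change in the number of cells of a type and a change in RNA per cell cannot be told apart. The 10 injured tubule markers had a summed linear level of 118, 181, 1384 and 472. After injury 9 of 10 were higher by 2-fold or more in wild type and 6 of 10 in the knockout, where 14.6% and 4.96% of all genes were. Between the injured arrays 9 of 10 were lower in the knockout, where 8.09% of all genes were. The 12 proximal tubule markers summed to 1633, 1352, 423 and 1449, lowest on the wild type injured array. The neutrophil markers, 7 of 9 well above background somewhere and Ngp and Camp on no array, summed to 4.81, 7.04, 12.6 and 3.41. The macrophage and monocyte markers summed to between 87.1 (wild type sham) and 163 (wild type injured), a sum carried by Ly6c2 (at 7.25 on the latter array). Their median for injury in wild type was -0.68, with 4 of 12 higher and 6 lower by 2-fold or more, where 14.6% and 15.1% of all genes were. Between the injured arrays 6 of 12 of them and 4 of 7 fibroblast markers were higher by 2-fold or more in the knockout, where 11.3% of all genes were. The 8 endothelial markers summed to 42.0, 60.5, 11.8 and 46.3, with 7 of 8 higher by 2-fold or more in the knockout between the injured arrays, against the same 11.3%. The T and NK cell markers, of which Ncr1 was well above background on no array, summed to 1.24, 1.19, 0.85 and 1.29. After injury in wild type 3 of 8 were lower by 2-fold or more (Cd3d, Cd8a and Nkg7), where 15.1% of all genes were. Cd3d and Cd8a were not well above background on the wild type injured array. The rest of the list ran from -0.42 (Lck) to 0.49 (Cd4), and the median was -0.32. The wild type sham array stood apart in adipocyte markers, which summed to 48.2, 13.1, 4.6 and 8.92 and had a median of -6.54 for injury in wild type, and in urothelial markers, which summed to 4.30, 1.45, 0.83 and 1.09. The part of these cells in the values of the members was not tested.

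The gene patterns most like that of Tnfrsf12a over the 4 arrays, by Euclidean distance of the centred log2 levels among 14992 genes, were Gm8267 (0.09), 4930503E14Rik (0.20) and Gdf15 (0.21). Gdf15, a stress-induced cytokine, lay at 0.17, 0.21, 4.15 and 1.61. Among the members Relb (rank 250), Nfkb2 (rank 281) and Bcl3 (rank 420) came nearest. The 4 arrays give few points, and this is a description.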

How the data were processed

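Each sample was 1 kidney RNA labelled with Cy3 on a one-colour Agilent array, per the labels' protocols. The deposited scanner files hold intensities per spot from Feature Extraction 10.7.3.1, per the file headers; the submitters' processing notes name version 9.1. The processed signal in them is already corrected for background, and probe positions are on mm9, per the file headers. A deposited value table of log2 values, scaled by the authors in a way not given in the sources used here, had column medians of 5.93, 5.92, 5.91 and 5.92, ranked spots like the scanner files (Spearman at least 0.99998), and served as an alternative. Transcript annotation on mm9 was not used here, so exon positions are not given.

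Control spots (43379 of 45018 were kept) and spots with outlier flags were left out, log2 processed signal was taken minus the array's 75th percentile, and spots of a probe were averaged. Probes were named through RefSeq by accession (27649), symbol (5584) or synonym (471), or by the file (1264), and 6174 had no name. A gene's brightest probe gave its value, and every probe of the members is printed. A difference was kept where the gene was well above background on at least 1 of the arrays compared (all 4 for the difference of injury responses). limma 3.58.1 in R 4.3.3 fitted genes well above background on at least 2 arrays, with Benjamini-Hochberg adjustment over all of them, and was tested on simulated data. Alternatives were normexp (offset 50), median and quantile scaling, the authors' table, the mean over probes, other filters, a 4-fold threshold, bounds, and leaving out each array in turn with the other factor left out of the model. A dim probe was bounded by the array's lowest well-above-background signal, or by its own signal where that was brighter.

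The members and lists were chosen with earlier results of these data known. Named genes were the members, those of each list with the largest differences past 2-fold each way, a selection of which is printed, and the 3 patterns nearest to that of the member with the widest range. Tnfsf12, Icam1, Map3k14, Rela and Rel were added for their known role after their values were seen.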

Additional observations from a re-analysis of the deposited data

Results flagged for a closer look

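For 4 members the knockout minus wild type difference had opposite signs on the sham and the injured arrays, each beyond the median spot SD of 0.14. With median scaling the sham differences of Tnfrsf1a (0.0056) and Relb (0.06) lie within that SD. Tnfrsf1a was at 0.16 and -0.45, so that the differences differed by -0.61. Relb was at 0.22 and -0.95 (-1.17), Bcl3 at 0.34 and -0.35 (-0.69) and Nfkbia at 0.37 and -0.74 (-1.11). For Tnfaip3 the injury difference was 0.21 in wild type and -0.44 in the knockout (-0.65). With normexp the opposite sign is lost, at 0.33 in wild type and 0.76 in the knockout, a difference of 0.42. With 1 array per group none of these differences was tested. The knockout sham array, which enters all 5, also had the female pattern, and its erythroid markers were 3.12 higher than on wild type sham by the median. The wild type sham array, which also enters all 5, stood apart in adipocyte markers (sum 48.2, against 4.6 to 13.1 elsewhere). Their part in these values was not tested.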

How the results depend on the processing

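No paired analysis was possible because the labels give no replicate numbers shared by groups; the additive fit already compares injured with sham within each genotype. Of the results that answer a comparison, 156 values under an alternative stayed within 1.5 times or the spot error of the reported one and 28 did not. The cause of the moves was not tested. With normexp the members' median was 0.87 for injury in wild type, 0.79 for injury in the knockout and -0.92 for the difference of responses, and 0 members were higher and 1 lower in the knockout on the injured arrays; limma called 4438 genes for injury and 97 for genotype. In that fit 1 knockout injured spot, at -11069 relative to its local background, entered the background model. With normexp fitted without flagged spots, chosen after seeing the data, the medians were 0.87, 0.24 and -0.50, 0 members were higher on the injured arrays, limma called 720 and 116 genes, and Tnf reversed there, from 1.43 to -0.57. For injury in the knockout, the median was 0.40 in the authors' table, 0.73 with the mean over probes, 0.16 with genes well above background on all 4 arrays and 0.78 against wild type sham. Without the filter the wild type median was 0.96, and 1 member, Tnf, had the larger response in the knockout by 2-fold. With median scaling the sham median was 0.0056. At 4-fold, 0 members were higher after injury in the knockout, where 1.69% of all genes were. Between the injured arrays 0 were higher and 1 lower at 4-fold, where 3.18% and 2.26% of all genes were. The response was smaller in the knockout by 4-fold or more for 1 member, as for 1.91% of all genes. With the filter on all 4 arrays, or with bounds, 0 members were higher in the knockout on the injured arrays. Nfkbia in wild type was below 2-fold with normexp (0.87). Tnfaip3 turned direction with normexp for injury in the knockout (0.76). Leaving out an array needs a model with 1 factor only, which is not comparable with the additive fit, and gave 0 to 769 calls for injury and 0 to 144 for genotype. Over all genes the count higher after injury in the knockout ran from 372 to 5089 around 847, both under normexp. Higher genes were 60.1% of those past 2-fold on the sham arrays, 43.0% with median scaling, 49.6% with quantile normalization and 49.3% in the authors' table; for injury in wild type median scaling shifted the median of all genes to -0.11. Dim probes limit Tnf, which was well above background on 1 array.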

Other observations

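Macrophage and monocyte markers did not move as a block. After injury in wild type 4 of 12 were higher by 2-fold or more, led by Cd68 (2.80), Cd14 (2.12) and Itgam (2.07), and 6 were lower, led by the resident macrophage genes Mrc1 (-3.09), C1qa (-2.93) and Adgre1 (-2.83). Of all genes, 14.6% were higher and 15.1% lower. In the knockout 2 of 12 were higher, Cd68 by 1.37 and Cd14 by 1.26, and 0 lower, where 4.96% and 4.2% of all genes were. Mrc1 was not well above background on the wild type injured array, and its bound for injury in wild type was -2.38. On the knockout injured array C1qa was 3.28 and Mrc1 at least 2.78 higher than on the wild type one. These are single arrays and the differences were not tested.

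Of 6 neutrophil markers compared in wild type, 5 were higher by 2-fold or more after injury, where 14.6% of all genes were. Of 6 compared in the knockout, 4 were lower, where 4.2% of all genes were, while Mpo was 0.15 higher. Mmp8, among those 4, was not well above background on the knockout injured array, and its bound was -0.41, under 2-fold. Retnlg was 2.05 higher in wild type and S100a8, which encodes a calcium-binding protein abundant in neutrophils, 1.20 higher, whereas in the knockout they differed by -1.60 and -1.24. The knockout sham array, with its female pattern, was above wild type sham by 1.23 for Retnlg and 0.33 for S100a8. These differences were not tested.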
